A study of Arabidopsis thaliana with 17 samples.

Results

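Bioprinted constructs of Arabidopsis thaliana root cells labelled meristematic were compared with constructs labelled differentiated at day 0. Of 33201 entries in the group table, the 17627 with an FPKM of 1 or more in either construct group were tested, and 15574 were below 1 in both. FPKM is the number of fragments per length of transcript, scaled to the mapped fragments of the sample. All groups carried pSCR:SCR-mCherry, in which the SCARECROW (SCR) promoter drives SCR fused to the red fluorescent protein mCherry. Each construct group had 3 libraries at day 0, and isolated cells of the same tissues at day 0, which the series describes as its control, had 3 libraries each. Bioprinting lays down living cells inside a soft carrier in a set form. The labels used here do not say how the root was divided into meristematic and differentiated tissue.

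The growing root tip holds a stem cell niche whose descendants divide in the meristem, then elongate and take on the features of epidermis, cortex, endodermis and vascular cells. The root cap covers the tip, and its outer cells mature, undergo programmed cell death and detach. Dividing cells make many ribosomes, so nucleolar and ribosomal protein genes are usually most active in the meristem, whereas Casparian strip, root hair and secondary wall genes mark maturing cells.

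The marker lists met the label only in part. Regulators of the stem cell niche, DNA replication genes and genes of ribosome biogenesis, which are usually strong in meristems, were lower in the constructs labelled meristematic wherever a member of those 3 lists passed the threshold. Core histone genes had no call among 12 tested, where 9.38% of all tested genes were called. Mitosis genes had 1 call in each direction, but 13 of 15 ratios lay below 0. Among lists of differentiated cells, none of 15 endodermis and Casparian strip genes and none of 7 suberin genes was called. Lists so short can lack a call at a share of 9.38%. The Casparian strip scaffold gene CASP1 had 370 against 451 FPKM. Genes of root cap maturation, which belong to the root tip, and of developmental cell death were higher in the constructs labelled meristematic, with the cell death nuclease BFN1 at 14.6 against 8.12 FPKM. The groups are named throughout by their label, as labelled meristematic or labelled differentiated.

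All values per gene are pooled FPKM from the authors' deposited table, which holds 1 value per group and therefore no error between replicates. A gene was called where the q-value in that table was under 0.05. By that rule 1653 of 17627 genes (9.38%) were called. Of the genes tested, 840 (4.77%) were higher and 813 (4.61%) were lower in the constructs labelled meristematic. The lowest q in the authors' deposited table was 0.000551, held by 282 of the calls. It applies to each gene called in constructs and named before the comparison with isolated cells, where no other q is given. A log2 ratio is always that of the constructs labelled meristematic over those labelled differentiated, unless isolated cells are named.

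The median log2 ratio of the tested genes was 0.02, with quartiles of -0.31 and 0.35 over 17512 genes with a value above 0 in both groups. Called genes lay well outside that range, since the smallest called log2 ratio had a size of 0.74. The median was 1.18 for genes called higher and -1.30 for genes called lower. At least 4-fold differences were found in 85 of the genes called higher and in 112 of those called lower. A large ratio alone did not make a call: 15 genes with an FPKM of 10 or more in the higher group and an 8-fold or larger difference were not called, 14 of them lower in the constructs labelled meristematic.

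**Figure D1:**
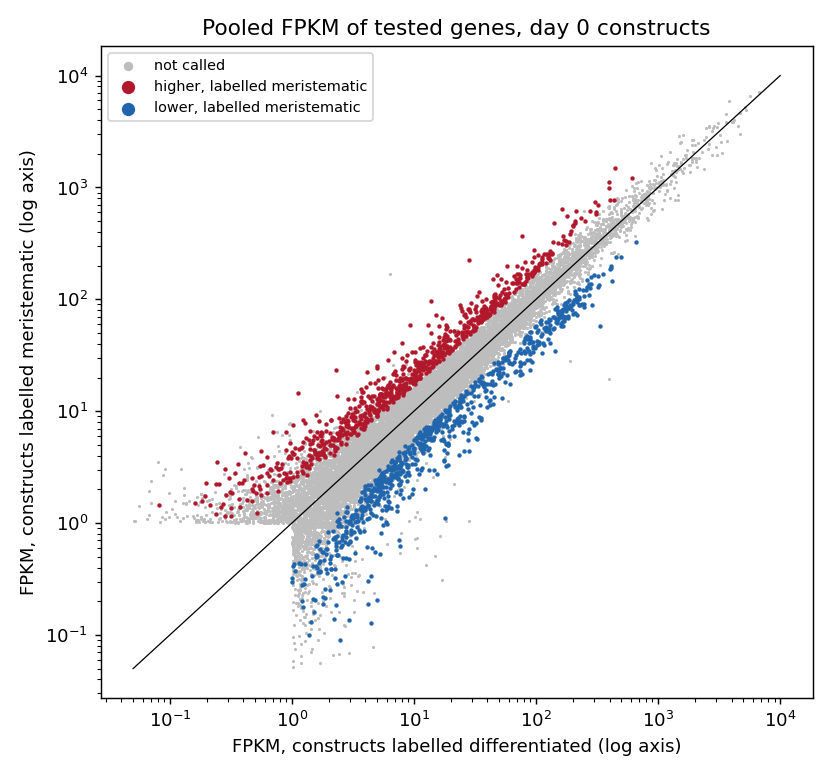
Pooled FPKM of tested genes in constructs at day 0, with the constructs labelled differentiated on the x axis and those labelled meristematic on the y axis, both on log axes. Each point is 1 gene, genes at or below 0.05 in either group are not drawn, and the line marks equal values; the 840 genes called higher (red) and the 813 called lower (blue) lie in bands on both sides of the 1:1 line.

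The share of genes called varied with level. It was 5.38% where the higher group had an FPKM from 1 to below 2, rose to 13.8% from 100 to below 1000, and was 2.72% (4 of 147 genes) at 1000 or more. Few of the most abundant transcripts were thus called. AGP2, an arabinogalactan protein gene of the cell surface, had 5980 FPKM in the constructs labelled meristematic and 3846 in those labelled differentiated without passing the threshold. The glutathione S-transferase gene GSTU19 stood at 5215 and 5157.

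Measures of whole libraries overlapped between the groups, with 1 exception. The number of genes at an FPKM of 1 or more was 16078 ± 368 (SD, n = 3) in the constructs labelled meristematic and 16138 ± 316 (SD, n = 3) in those labelled differentiated (exact two-sided permutation p 1). Summed FPKM was 768418 ± 6788 against 755476 ± 16065 (SD, n = 3 each, exact permutation p 0.4). The 10 highest values held 5.04% ± 0.460 against 4.97% ± 0.388 (SD, n = 3 each, exact permutation p 0.8). The highest value was 6178 ± 707 against 4899 ± 642 FPKM, with all 3 libraries of 1 group above the other (exact permutation p 0.1, the smallest that 3 against 3 allow, adjusted 0.5 over 5 measures). The read depth of each library is unknown, because FPKM values carry no totals. Values per gene could not be taken from the library table, whose values do not stand on the lines of their genes.

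Regulators of the stem cell niche and meristem were lower in the constructs labelled meristematic. Of 18 list members, 12 were tested, 6 were called lower and none higher, where 4.61% of all tested genes were called lower. All 12 ratios lay below 0, with a median of -1.10 against 0.02 for all tested genes. In bulk samples, fewer cells of a type and less RNA per cell cannot be told apart.

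BABY BOOM (BBM), an AP2 transcription factor that promotes stem cell identity, had 0.210 FPKM in the constructs labelled meristematic and 1.5 in those labelled differentiated, a log2 ratio of -2.84 (q 0.0173 in the authors' deposited table), or -1.05 with a pseudocount of 1 FPKM. SHORT-ROOT (SHR), which moves from the stele into the endodermis and switches on SCR there, had 1.33 against 3.64 (-1.46, q 0.0124 in the authors' deposited table). Its partner JACKDAW (JKD), a zinc finger factor, had 2.29 against 6.4, a log2 ratio of -1.48 (q 0.00221 in the authors' deposited table). All these factors were thus expressed at low levels in both groups. SCR, which is needed for the quiescent centre and the endodermis and which the transgene also encodes, had 6.88 against 12.1 (-0.81, q 0.0397 in the authors' deposited table). The share of transgene transcripts in that value was not tested.

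TMO7, a small mobile factor of the embryonic root, was the most abundant called member, at 19.8 against 49.5 FPKM (-1.32, q 0.0029 in the authors' deposited table). The meristem growth peptide gene RGF2 had 2.55 against 7.34 (-1.52, q 0.0339 in the authors' deposited table). The remaining members pointed the same way without passing. WOX5, the homeobox gene of the quiescent centre, had 15.2 against 21.2 (-0.49), and the PLETHORA genes PLT1, PLT2 and PLT3, dose-dependent regulators of the meristem, had log2 ratios of -1.19, -1.01 and -0.74.

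Genes of DNA replication had the same direction where called. Of 14 tested members of 18, 4 were lower and none higher, where 4.61% of all tested genes were lower. The median log2 ratio was -1.15, and -0.56 with a pseudocount of 1 FPKM. They were ORC6, of the origin recognition complex (0.610 against 2.54 FPKM, log2 ratio -2.06), MCM5, of the replicative helicase (0.842 against 2.76, -1.71), FAS1, of a chromatin assembly factor (0.637 against 1.62, -1.35), and RNR1, the large subunit of ribonucleotide reductase (1.12 against 2.68, -1.25). Their q-values in the authors' deposited table were 0.0251, 0.00448, 0.037 and 0.0193. Every called member was below 3 FPKM in both groups, and none of the 4 was left when an FPKM of 5 was required. The sliding clamp genes PCNA1 (4.06 against 4.80) and PCNA2 (3.38 against 5.26) did not pass.

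Calls among genes of mitosis and cytokinesis were split, but most ratios lay below 0. Of 15 tested members of 24, 1 was higher and 1 lower, where 4.77% and 4.61% of all tested genes were. The median log2 ratio was -0.63, with 13 of 15 ratios below 0, against a lower quartile of -0.31 for all tested genes. The mitotic kinase gene CDKB1;1 had 1.43 FPKM in the constructs labelled meristematic and 3.74 in those labelled differentiated (-1.39, q 0.0435 in the authors' deposited table). AURORA2 (AUR2), a kinase of spindle and division plane, went the other way at 4.51 against 1.52 (1.57, q 0.0189 in the authors' deposited table). The B-type cyclins were near the limit of 1 FPKM. CYCB1;1 was below it in both groups, and CYCB1;2 had 1.46 against 1.91.

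Core histone genes, many of which peak in DNA synthesis, did not follow the replication list. None of 12 tested members was called, where 9.38% of all tested genes were, so the missing calls alone say little. The median log2 ratio was -0.05. HTA10 stood at 477 against 434 FPKM and HTB4 at 392 against 377. Reads of near-identical histone copies can be shared between genes, so single members are uncertain. The H2A.Z variant gene HTA11, which was not on that list, was called lower at 4.24 against 18.7, a log2 ratio of -2.14.

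Nucleolar genes of ribosome biogenesis showed the highest share of lower calls among the 30 fixed lists. All 19 members were tested, 13 (68.4%) were lower and none higher, against 4.61% of all tested genes, and the median log2 ratio was -1.11. FIBRILLARIN 2 (FIB2), a methyltransferase of ribosomal RNA, had 4.05 FPKM in the constructs labelled meristematic against 23.5 in those labelled differentiated, a log2 ratio of -2.54. Its relative FIB1 had 17.5 against 45.8 (-1.39). The nucleolar histone deacetylase gene HDA3 had 3.32 against 18.9 (-2.51), CBF5 (NAP57 in the reference), the pseudouridine synthase, had 5.71 against 32.1 (-2.49), and NOP56, of the same small nucleolar ribonucleoprotein class as fibrillarin, had 8.36 against 35.3 (-2.08).

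Of these 5 genes, FIB1 had the highest level and the smallest ratio. Smaller changes were seen in TORMOZ (TOZ), a U3 processing factor (2.23 against 4.91, -1.14, q 0.00932 in the authors' deposited table), and PESCADILLO (PES), of large subunit assembly (9.60 against 19.4, -1.01, q 0.00858 in the authors' deposited table). The 2 nucleolins differed in sign without passing. NUC-L1, the main nucleolin, had 32.4 against 54.4 (-0.75) and NUC-L2 had 7.05 against 4.22 (0.74).

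Ribosomal protein genes went with them. Of 126 nuclear genes whose reference product names a protein of the cytosolic ribosome by subunit or by its eukaryotic number, 116 were tested, 79 (69.0%) were lower and 1 was higher. A few organelle proteins share such names. Of all tested genes, 4.61% were lower and 4.77% higher. The median log2 ratio of the tested members was -1.04. The whole set held 0.648% of summed FPKM in the constructs labelled meristematic against 1.34% in those labelled differentiated. AT4G15000, whose product name places it in the large subunit family L27e, had 146 against 422 FPKM (-1.54). Of 252 further nuclear genes with other ribosomal protein names, 231 were tested and 119 were lower, none higher, with a median of -0.95. Paralogues that encode nearly the same protein can share reads, so a single gene among them is less certain than the set.

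Genes linked to translation stood among the largest single differences as well. RACK1B_AT and RACK1C_AT, scaffold proteins of the small ribosomal subunit, had log2 ratios of -2.05 (7.52 against 31.2 FPKM) and -2.28 (3.62 against 17.62). RPL16A, a large subunit protein gene, had 2.99 against 14.6 (-2.28, q 0.00102 in the authors' deposited table).

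The root cap and developmental cell death list had the highest share of calls of any fixed list. All 13 members were tested, 10 (76.9%) were higher and none lower in the constructs labelled meristematic, against 4.77% of all tested genes, with a median log2 ratio of 1.11. Together the 13 genes summed to 630.5 FPKM in the constructs labelled meristematic and 282 in those labelled differentiated. BEARSKIN2 (BRN2, NAC070 in the reference), a NAC factor of late root cap maturation, had 33.9 against 6.85, a log2 ratio of 2.31. Its close relative BRN1 had 51.6 against 21.3 (1.28).

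SOMBRERO (SMB), the NAC factor that acts earlier in cap maturation, stood apart from both relatives. It had 5.24 against 5.22 FPKM, a log2 ratio of 0.01, and did not pass.

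Enzymes of wall breakdown and cell death were raised with the BEARSKIN genes. The cellulase genes CEL5 and CEL3, which act when cap cells detach, had 41.7 against 15.9 FPKM (1.39) and 11.98 against 5.87 (1.03, q 0.0156 in the authors' deposited table). AT1G65570, whose product is a pectin lyase-like protein, had 168 against 71.9 (1.22, q 0.00144 in the authors' deposited table). METACASPASE 9 (MC9), a cell death protease, had 50.4 against 13.9 (1.86).

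The nucleases and proteases of developmental cell death were also higher. The ribonuclease gene RNS3 had 47.9 against 22.3 FPKM (1.11, q 0.00932 in the authors' deposited table), and BFN1, given above, had a log2 ratio of 0.85 (q 0.0479 in the authors' deposited table). The carboxypeptidase gene SCPL48 had 147 against 82.3 (0.84, q 0.0297 in the authors' deposited table). MC9, BFN1 and RNS3 are also active in dying xylem vessels. In the xylem list, 14 of 21 ratios lay above 0 and 2 genes, MYB46 and IRX6, were called higher, while the xylem proteases XCP1 (178 against 163) and XCP2 (187 against 158) did not pass. The part of xylem in the values of these 3 genes was not tested.

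**Figure D2:**
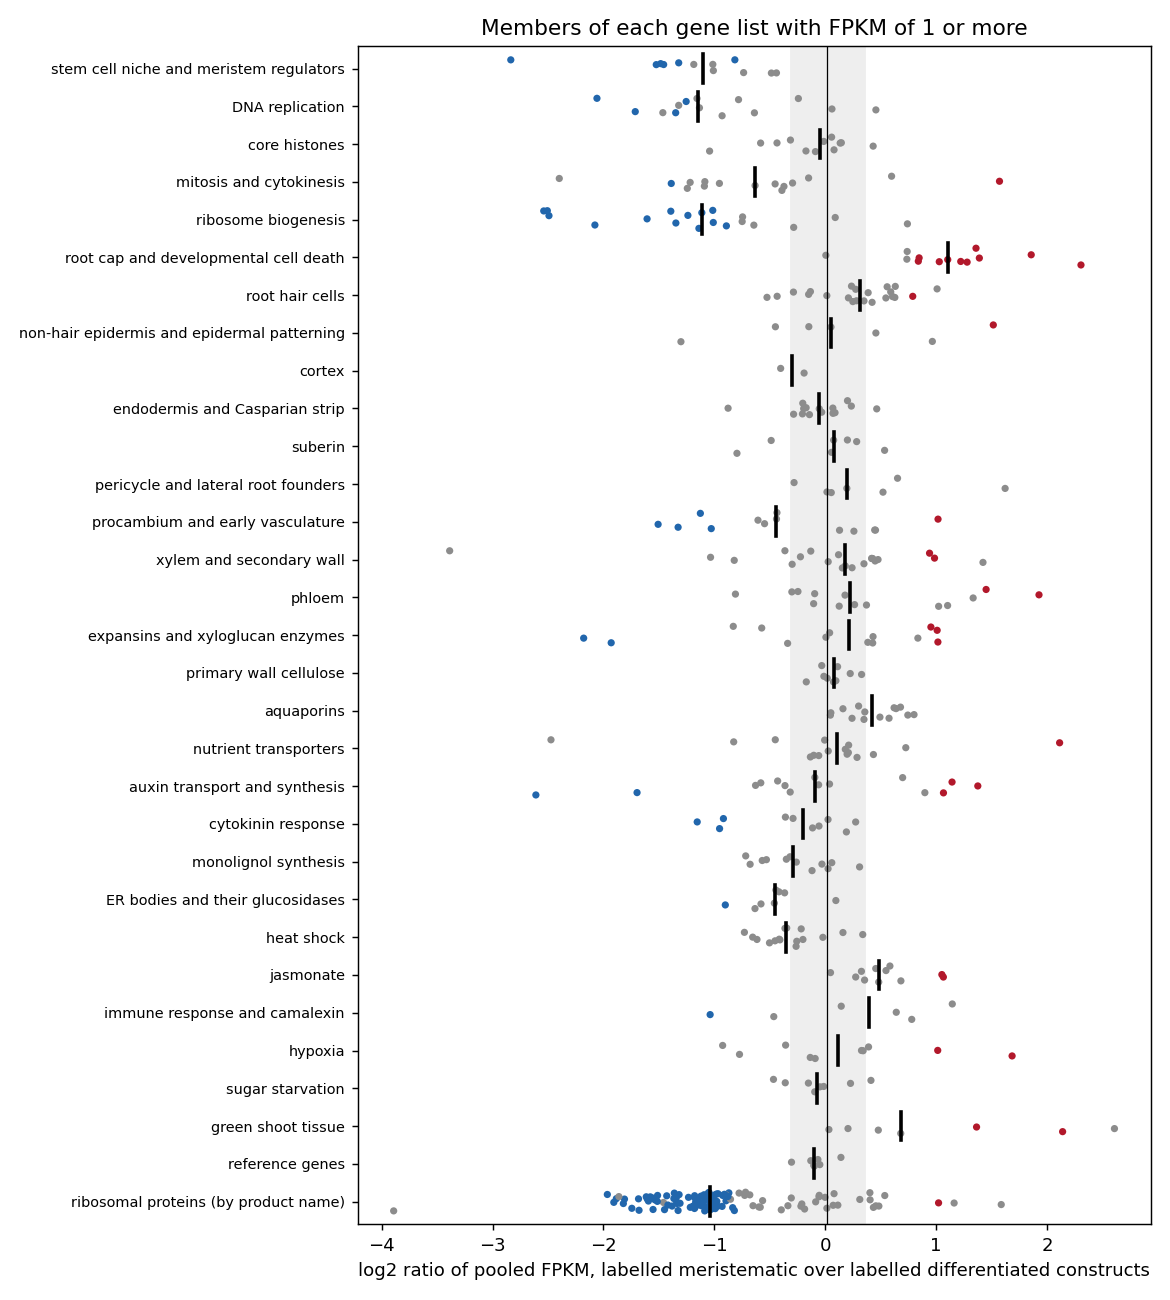
Log2 ratio of pooled FPKM, constructs labelled meristematic over those labelled differentiated at day 0, for each tested member of the 30 fixed lists and of the ribosomal protein set. Each point is 1 gene (red called higher, blue called lower, grey not called), the thick bar is the list's median, and the grey band and thin line are the quartiles (-0.31 and 0.35) and the median (0.02) of the tested genes; the lists of meristem, replication and ribosome genes lie to the left and the root cap list to the right.

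Epidermal genes changed little. Of all tested genes, 4.77% were called higher and 4.61% lower. Of 22 tested root hair genes, 1 was called, LRL3, a bHLH factor of hair growth, at 40.4 against 23.4 FPKM (0.79, q 0.0451 in the authors' deposited table). This list had a median log2 ratio of 0.32, above the 0.02 of all tested genes but inside their upper quartile of 0.35. The hair expansin EXPA7 had 61.4 against 47.0 and the hair growth factor RSL4 13.0 against 17.58, neither passing. In the patterning list 1 of 7 tested genes passed. ETC1, a small MYB repressor of the non-hair fate, had 13.6 against 4.75 (1.52, q 0.0169 in the authors' deposited table). GL2, the homeobox gene that marks non-hair cells, was low in both groups at 1.63 and 1.19.

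Ground tissue and pericycle genes gave no call, where 9.38% of all tested genes were called. The endodermis and Casparian strip list had 15 tested members, none called, and a median log2 ratio of -0.05. Its scaffold gene CASP1 (370 against 451 FPKM), the regulator MYB36 (43.0 against 36.5) and the lignin positioning gene ESB1 (199 against 224) were abundant in both groups. Of 19 suberin genes only 7 were tested, none was called, and the defining acyltransferase GPAT5 stood at 0.287 and 0.260 FPKM. None of 7 pericycle and lateral root genes and neither of the 2 tested cortex genes was called, and the founder cell factor LBD16 had 35.9 against 35.5.

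Early vascular genes were partly lower. In the procambium list, 4 of 13 tested genes were lower and 1 higher, where 4.61% and 4.77% of all tested genes were. The lower ones included 3 class III HD-ZIP genes, factors of vascular and xylem patterning. HB-8 had 1.56 against 4.43 FPKM (-1.51, q 0.00221 in the authors' deposited table). CNA had 2.09 against 5.25 (-1.33, q 0.00355 in the authors' deposited table) and PHB 1.38 against 2.82 (-1.03, q 0.0481 in the authors' deposited table). Of the same class, PHV (1.44 against 1.94) and REV (6.96 against 5.82) did not pass, and the ratio of REV lay above 0.

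PXY, the receptor kinase that maintains the cambium, was the member called higher, at 2.70 against 1.33 (1.02, q 0.0479 in the authors' deposited table). Called genes of this list were thus below 6 FPKM in both groups.

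In the xylem and phloem lists no gene was called lower, where 4.61% of all tested genes were. Ratios below 0 were held by 7 of 21 tested xylem genes and 5 of 14 tested phloem genes. In xylem, 2 of 21 tested genes (9.52%) were higher, where 4.77% of all tested genes were: the secondary wall master switch MYB46 (16.2 against 8.19 FPKM, 0.99, q 0.0275 in the authors' deposited table) and IRX6 (7.01 against 3.65, 0.94, q 0.0473 in the authors' deposited table). The secondary wall cellulose synthases CESA4, CESA7 and CESA8 had log2 ratios of 0.18, 0.35 and 0.43 and did not pass. In phloem, 2 of 14 (14.3%) were higher: NAC45, a factor of sieve element enucleation (3.1 against 0.814, 1.93, q 0.0235 in the authors' deposited table), and the lectin gene PP2-A1 (5.87 against 2.15, 1.45, q 0.0339 in the authors' deposited table). The companion cell sucrose transporter SUC2 had 30.1 against 23.3.

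Wall loosening genes moved in both directions. Of 14 tested expansins and xyloglucan enzymes, 3 were higher and 2 lower, where 4.77% and 4.61% of all tested genes were. EXPA17 had 168 against 83.2 FPKM (1.02, q 0.0137 in the authors' deposited table), EXPA14 had 7.64 against 3.79 (1.01, q 0.0487 in the authors' deposited table), and the xyloglucan enzyme XTH19 had 598 against 309 (0.95, q 0.0422 in the authors' deposited table). The lower ones showed larger ratios. EXPA4 had 11.6 against 44.2 (-1.93) and EXPA15 1.36 against 6.17 (-2.18, q 0.00102 in the authors' deposited table). None of the 9 genes of primary wall cellulose synthesis was called, and CESA1, CESA3 and CESA6 differed by 0.10 or less in log2 ratio.

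Among genes of water transport and nutrient uptake, 1 call was made, where 9.38% of all tested genes were called. None of 14 aquaporins passed. All 14 ratios lay above 0 as deposited and with median-ratio factors, 12 after both groups were scaled to an equal sum and 11 after quantile normalization. Their median log2 ratio of 0.43 was above the upper quartile of all tested genes, 0.35. The vacuolar water channel gene TIP2;3 had 955 against 548 FPKM. TIP1;1, of the same kind, had 1608 against 1360 FPKM. Of 16 tested nutrient transporters, 1 was called, the iron reductase FRO2, at 4.33 against 0.999 (2.11, q 0.00144 in the authors' deposited table). The iron transporter IRT1, which acts with FRO2, did not pass, at 0.285 against 1.58.

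In the list of auxin transport and synthesis, 3 of 15 tested genes were higher and 2 lower, against 4.77% and 4.61% of all tested genes. The grouping by role below was made after the values were seen. Of 5 synthesis genes, 3 were higher: YUC5 had 19.96 against 7.69 FPKM (1.38), YUC8 19.8 against 9.48 (1.07, q 0.00418 in the authors' deposited table) and YUC9 11.4 against 5.15 (1.14, q 0.0135 in the authors' deposited table). These encode flavin monooxygenases of the last step to auxin. YUC3, of the same family, had 6.54 against 3.51 and TAA1, of the step before, had 29.5 against 18.16, and neither passed. Of 10 tested transporters, 2 were lower. The influx carrier LAX2 had 0.537 against 3.28 (-2.61, q 0.00144 in the authors' deposited table) and the exporter ABCB19 had 5.44 against 17.63 (-1.70). PIN2, AUX1 and ABCB4 had log2 ratios of -0.09, 0.04 and -0.06 and did not pass.

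Cytokinin response genes were lower in 3 of 10 tested cases, against 4.61% of all tested genes, and higher in none. These were type-A response regulators, which dampen the signal: ARR3 with 7.64 against 17.0 FPKM (-1.15, q 0.0124 in the authors' deposited table), ARR8 with 5.89 against 11.1 (-0.92, q 0.0283 in the authors' deposited table) and ARR9 with 9.88 against 19.1 (-0.95, q 0.0159 in the authors' deposited table). The more abundant ARR5 (87.9 against 86.4) and ARR7 (50.8 against 54.9) did not pass.

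Defence and stress lists held no more than 2 calls each, where 4.77% of all tested genes were called higher and 4.61% lower. All 11 tested ratios of the jasmonate list lay above 0. Their median was 0.48, against an upper quartile of 0.35 for all tested genes. The jasmonate list had 2 of 11 tested genes higher, the lipoxygenase LOX4 at 25.1 against 12.01 FPKM (1.07, q 0.00387 in the authors' deposited table) and the transcription factor ORA47 at 31.6 against 15.2 (1.05, q 0.00957 in the authors' deposited table). The hypoxia list had 2 of 10 higher, the haemoglobin HB1 at 79.3 against 24.6 (1.69) and the factor HRE2 at 37.9 against 18.8 (1.01, q 0.0103 in the authors' deposited table). The fermentation genes ADH1 (117 against 89.5) and PDC1 (49.8 against 39.7) did not pass.

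The camalexin enzyme PAD3 was the 1 immune gene of 6 called, lower at 11.4 against 23.3 FPKM (-1.04, q 0.0119 in the authors' deposited table). The ER body glucosidase BGLU21 was the 1 gene of 8 called in its list, lower at 112 against 210 (-0.90, q 0.0429 in the authors' deposited table), while its relative PYK10 had 851 against 796. None of 12 monolignol genes, 8 sugar starvation genes or 16 heat shock genes was called. Of all tested genes, 9.38% were called in either direction.

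Genes of green shoot tissue, markers of cells that a root sample should lack, were low but not equal. Of 8 tested members of 10, 2 were higher, PSAD-1 of photosystem I at 2.98 against 0.675 FPKM (2.14, q 0.0297 in the authors' deposited table) and PSBO1 of photosystem II at 4.21 against 1.64 (1.37, q 0.0367 in the authors' deposited table). Of all tested genes, 4.77% were higher. All 8 tested members had the larger value in the constructs labelled meristematic, but both called members were below 5 FPKM. The list summed to 33.7 FPKM in the constructs labelled meristematic and 20.13 in those labelled differentiated, and the light-harvesting genes LHCB1.1 and LHCB2.1 were below 1 in both. Its part in the other results was not tested. Reference genes were level. Their median log2 ratio was -0.10, and none of 7 was called, where 9.38% of all tested genes were. ACTIN 2 (ACT2) had 431 against 463.

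The called genes that have a reference symbol and reach 10 FPKM in the higher group were ranked by ratio, and the 12 at each end are named here. ADS1 (AT1G06080), a fatty acid desaturase, had 14.4 against 1.12 FPKM, a log2 ratio of 3.69. CPT, a cis-prenyltransferase, had 23.5 against 2.31 (3.35). The lipid transfer protein gene LTP5 had the highest level of the 12, at 366 against 76.1 (2.27), and GPAT2, a glycerol-3-phosphate acyltransferase, had 24.3 against 5.01 (2.28).

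CPT and ADS1 had the largest ratios of the 12, both from low levels in the constructs labelled differentiated. The peptide gene CLE14 had 59.2 against 9.31 FPKM (2.67, q 0.00858 in the authors' deposited table). The kinase WAG1, which sets the polarity of auxin exporters, had 12.8 against 2.89 (2.15), and the ubiquitin ligase CNI1, of the response to carbon and nitrogen, had 58.8 against 12.9 (2.19). The remaining 5 were BRN2 and MC9, given above, EDA36 (2.1), scpl28 (2.04) and CXE18 (1.82).

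Of the lowest 12, those described above were FIB2, HDA3, CBF5, RACK1C_AT, RPL16A, NOP56 and RACK1B_AT, with HTA11 among them. The other 4 were MIPS1, the first enzyme of inositol synthesis (2.76 against 15.3 FPKM, -2.47), the RNA-binding protein gene GRP4 (8.66 against 35.8, -2.05), the cyclophilin ROC2 (6.89 against 28.2, -2.03) and the histone chaperone NRP1 (AT1G74560, 4.53 against 17.5, -1.95).

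Genes without a symbol in the reference gave some of the largest values. AT3G06460, whose product is a GNS1/SUR4 family membrane protein, a family that lengthens fatty acids, had 226 against 28.3 FPKM (3.00), and AT5G52670, of a copper transport family, had 1.12 against 18.1 (-4.01, q 0.00102 in the authors' deposited table). These were chosen after their values were seen. Of 60 called genes listed at 0 in 1 group, 8 reached at least 10 FPKM in the opposite group. Among them was MT1B, at 12.9 in the constructs labelled meristematic and a listed 0 in the others (q 0.00102 in the authors' deposited table). A listed 0 can be a failed estimate, and no ratio is given for these.

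**Figure D3:**
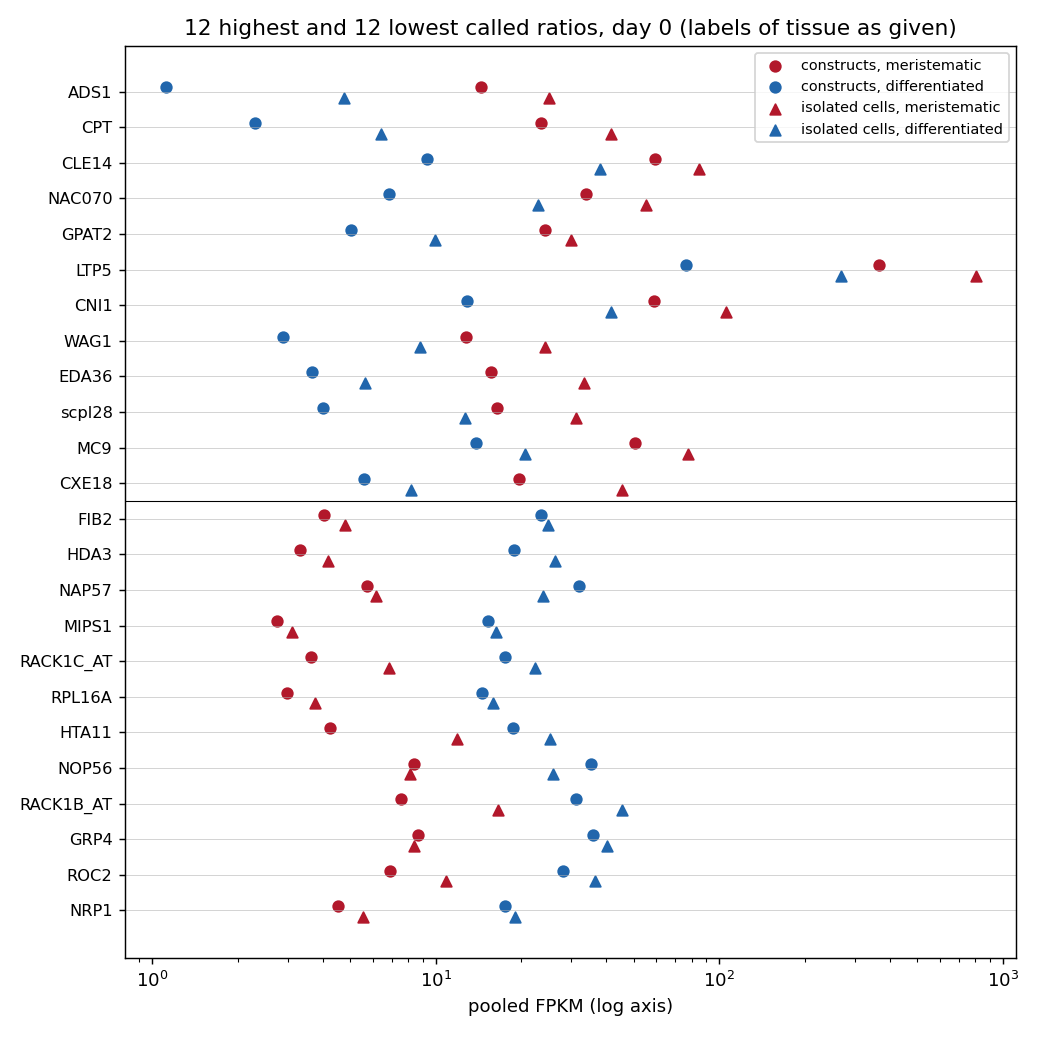
Pooled FPKM on a log axis of the 12 genes with the highest and the 12 with the lowest log2 ratio in constructs at day 0, chosen from called genes that have a reference symbol and reach 10 FPKM. Circles are constructs and triangles isolated cells, red for tissue labelled meristematic and blue for differentiated; in each of the 24 genes the triangles differ in the same direction as the circles.

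The same tissues as isolated cells formed a second comparison, with no library in common with the constructs. There 816 of 17623 tested genes (4.63%) were higher and 549 (3.12%) lower in cells labelled meristematic. Of the 16951 genes tested in both, 357 were called higher in both, which is 44.6% of the construct calls and 44.1% of the cell calls. Lower in both were 350, which is 46.2% of the construct calls and 65.3% of the cell calls. In opposite directions 1 gene was called, AT2G07698, an F1 ATPase alpha subunit gene that is chosen here for that. Its log2 ratio was -1.04 in constructs (q 0.0415 in the authors' deposited table) and 1.08 in cells (q 0.0222 in the authors' deposited table).

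Over 16895 genes with both ratios, Pearson's r was 0.588 and Spearman's rho 0.567, given as a description across genes, which are not independent replicates. Genes called in constructs alone mostly leaned the same way in cells. Of 432 called higher in constructs and not in cells, 416 (96.3%) had a cell ratio above 0, with a median of 0.56. Of 403 called lower in constructs and not in cells, 374 (92.8%) had a cell ratio below 0, with a median of -0.58. The shares of all genes with a cell ratio above or below 0 were not computed, so these percentages have no baseline. Summed FPKM was 1234075 in cells labelled meristematic and 994663 in those labelled differentiated, and cell ratios were not rescaled for it. Whether any gene differed more in constructs than in cells was not tested, because the pooled values carry no error.

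Values of the lists in isolated cells stood nearer to those in constructs for some lists than for others, and no difference was tested. Of all genes tested in cells, 4.63% were higher and 3.12% lower. Ribosome biogenesis had 11 of 19 members lower and 1 higher in cells (median -1.03), and all 11 were among the 13 lower in constructs. The member that was higher in cells alone was NUC-L2, at 6.48 against 2.35 FPKM (1.46). The root cap list had 11 of 13 higher in cells (median 1.27), and 9 of them were also higher in constructs. SMB had a log2 ratio of 0.88 in cells against 0.01 in constructs and passed in neither.

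Among meristem regulators, 4 of 14 tested were lower in cells (median -0.74), of which BBM, SHR and JKD were lower in constructs too. The fourth was PLT1, at 0.342 against 1.26 FPKM. Of replication genes, 2 of 15 were lower in cells, MCM2 and PCNA1, where 3.12% of all genes tested in cells were. Neither gene was among the 4 lower in constructs. The ribosomal protein set had 40 of 116 lower and 2 higher in cells (median -0.69), against 79 and 1 in constructs. Of these, 38 were lower in both.

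Heat shock genes, many but not all of them for chaperones that hold or refold damaged proteins, had different values in the 2 comparisons. That difference was not tested. In constructs none of 16 passed, 14 ratios were below 0 and the median was -0.36. In cells 4 of 16 were higher in those labelled meristematic, where 4.63% of all genes tested in cells were, and the median was 0.93. The small heat shock gene HSP18.2 had 360 against 478 FPKM in constructs (-0.41), and in cells 97.1 against 33.9 (1.52, called). The co-chaperone BAG6 had 556 against 667 in constructs (-0.26) and 154 against 56.1 in cells (1.45, called). The list held 1.91% of summed FPKM in constructs labelled meristematic and 2.64% in those labelled differentiated, but 0.625% and 0.542% in the cells. Sugar starvation genes had a median of -0.07 in constructs and 0.53 in cells, where 1 of 8 was higher, and pericycle genes had 0.20 and 0.61, with 1 of 7 higher in cells.

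**Figure D4:**
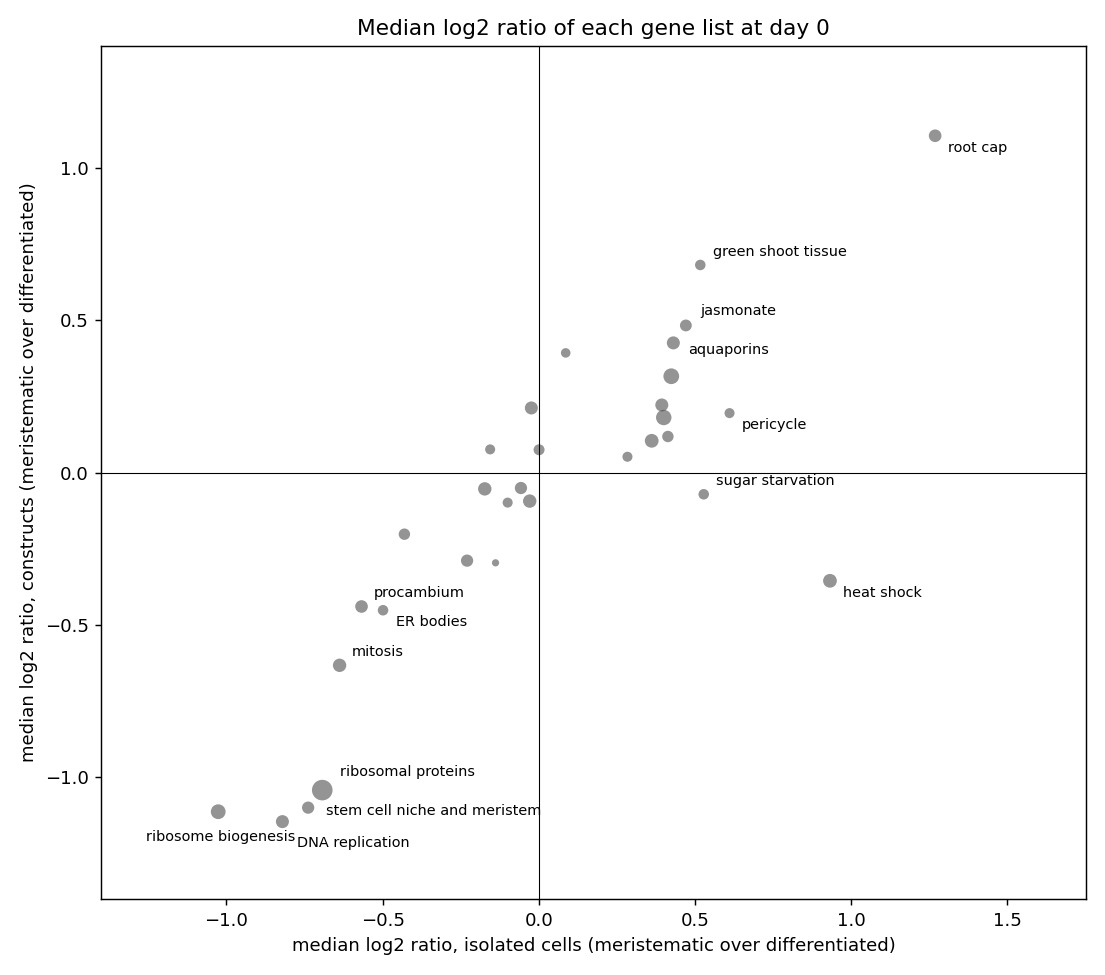
Median log2 ratio (labelled meristematic over labelled differentiated) of each of the 30 fixed gene lists and of the ribosomal protein set, in isolated cells on the x axis and in constructs on the y axis, both at day 0. Each point is 1 list, larger where more members were tested; most lists lie near the diagonal, root cap genes are at 1.27 in cells and 1.11 in constructs, and heat shock genes lie apart at 0.93 in cells and -0.36 in constructs.

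Some values of isolated cells need care. Of 113 genes at 1000 FPKM or more in both construct groups, 9 are listed at 0 in cells labelled meristematic and 1 in cells labelled differentiated. One of them is the dehydrin gene COR47, with 6587 and 5701 FPKM in the constructs and a listed 0 in both cell groups. The constructs have no such zero among these 113 genes by the way they were chosen.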

How the data were processed

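RNA of 17 libraries in 6 groups was sequenced as paired ends after poly(A) selection with a directional kit, per the labels' protocols, which limits what organelle transcripts can show. HISAT2 and Cufflinks are named in the submitters' processing notes. No label or header used here gives their versions, the genome build or the use of strand in counting, and overlapping genes are therefore uncertain. The deposited group table gives 1 FPKM per group, pooled by the authors, with a log2 ratio and a q-value for 7 comparisons. By its name, the unit FPKM means that the authors scaled for transcript length and sequenced fragments. The deposited log2 score of this comparison has the opposite sign and was used only as a check of the computed ratios, from which it differed in size by at most 0.056. The labels do not state how the authors made the q-values.

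Ratios were computed in Python 3.11.15 with pandas 2.3.3 and numpy 2.4.6, and exact permutation tests with scipy 1.17.1. The functions were checked on simulated data. A ratio against a listed 0 was left out of medians, and its call was kept. The planned limma test on highest values near each gene's line was void: over 224 genes that stood 3-fold above all others within 20 lines in the pooled values, the window ratio had a correlation of 0.0298 with the pooled ratio. Line by line, construct libraries correlated at 0.216 to 0.557. Planned promoter motifs were not analysed, since the build is not given.

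The TAIR10.1 reference, used for names only, held 32218 of the 32919 entries with a single ID; 282 entries join several IDs. Of 427 members of 30 lists, 425 were in the table and 357 were tested. The comparison, the members and the lists were chosen with earlier results of these data known. Named genes are the 12 highest and 12 lowest called log2 ratios, given a reference symbol and 10 FPKM in the higher group, up to 6 called members of each list by size of ratio, any member as a value, SCR and reference genes. The ribosomal set was chosen by product name. Whether the libraries come from separate plants is not stated, so p-values measure the spread between these libraries, which may be technical. Alternatives were other thresholds, scalings, a pseudocount of 1 and libraries left out. Values of some list members are not reported here.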

Additional observations from a re-analysis of the deposited data

How the results depend on the processing

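With q under 0.01 in place of 0.05, the count of genes higher in constructs labelled meristematic was 349 in place of 840, and of those lower 383 in place of 813. Minimum FPKM of 5, no minimum and a 2-fold minimum kept both counts within 1.5 times. Among lists under q under 0.01, root cap kept 7 of 10 calls, ribosome biogenesis 11 of 13, stem cell niche 2 of 6 and DNA replication 1 of 4. With an FPKM of at least 5, DNA replication and mitosis had 0 calls. Of calls at 2-fold or more, 614 were higher and 656 lower, 536 and 722 after scaling to an equal sum, 585 and 672 after quantile normalization, and 584 and 677 with median-ratio factors, so the higher share ran from 42.6% to 48.3%. None of 86 called log2 ratios of named genes and list members changed sign under the 3 scalings, but this says little. Scaling to an equal sum and median-ratio factors moved each by less than 0.1, where called ratios were at least 0.74 in size. A pseudocount of 1 cannot change a sign. It moved 57 of the 86 ratios, and 6 of 34 list medians, by at least 0.1.

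For whole libraries, differences are those labelled meristematic minus those labelled differentiated. With 1 library left out, the difference in genes at 1 FPKM or more ran from -267 to 84.3 (all libraries -59.7), in genes at 5 or more from -536 to 0.333 (-237), in summed FPKM from 6515 to 21947 (12942), in the share of the 10 highest values from -0.161 to 0.298 points (0.0724), and in the highest value from 907 to 1611 (1279). With same-numbered libraries taken as a replicate block (exact sign-flip permutation, smallest p 0.25), the p-values in that order were 1, 0.5, 0.5, 0.75 and 0.25. The titles give only a replicate number, and whether these numbers pair the libraries could not be checked per gene. The alternatives planned for the highest values near each line were not run, because that test was void. Values per gene without single libraries could not be had. Depth is unknown, and low genes, at an FPKM of 1 to 2, needed larger ratios to be called (median size 1.97) than those from 100 to 1000 (1.09).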

Other observations

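The gene families in this part were picked by reference product name after their values were seen, and their counts are descriptions. Calcium-binding EF-hand proteins, sensors of calcium signals, had 9 of 37 tested genes higher and 2 lower in constructs labelled meristematic, where 4.77% and 4.61% of all tested genes were. MSS3 had 217 against 81.9 FPKM (log2 ratio 1.41). The mitogen-activated kinase kinase kinases had 4 of 14 higher and none lower, all from MAPKKK16 to MAPKKK19, with MAPKKK18 at 116 against 52.2 (1.15). Products named for ethylene response or a related DNA-binding domain had 10 of 68 higher and 2 lower. The SKU5-similar genes, relatives of a wall protein of directional root growth, had 3 of 8 higher, among them sks16 at 33.8 against 10.3 (1.72) and sks15 at 36.4 against 11.1 (1.71). Serine carboxypeptidase-like genes had 5 of 20 higher and 1 lower. Lipid transfer products had 6 of 52 higher and none lower, led by LTP5.

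For the counts that follow, 4.77% of all tested genes were higher and 4.61% lower in constructs, and 4.63% and 3.12% in isolated cells. Products named for the TCP-1/cpn60 chaperonin family, whose cytosolic members fold actin and tubulin, had 5 of 12 tested genes lower in constructs labelled meristematic. None was higher, and the same 5 were lower in isolated cells. AT3G18190 had 10.8 against 30.5 FPKM (-1.497). Thaumatin-named genes split, with 2 higher and 3 lower of 13, and AT2G28790 had 0.627 against 7.75 (-3.63) in constructs with a log2 ratio of -3.35 in cells. Of 52 tested transcripts of the mitochondrial genome, 8 were lower and 1 higher in constructs labelled meristematic (median log2 ratio -0.70). In isolated cells only 30 were tested, of which 4 were higher and none lower (median 1.37). Members tested in constructs had a median of 1.23 in cells. Of the 52, 5 were listed at 0 in 1 construct group, among them ATMG00710, ATMG00720 and ATMG01400, which were called lower. All 138 mitochondrial entries summed to 11764 FPKM in constructs labelled meristematic and 12217 in those labelled differentiated. ATMG00690 had 57.9 against 334 FPKM in constructs and 9.56 against 6.49 in cells. Of 35 tested chloroplast transcripts, 3 were higher and none lower in constructs. Among the 3, ATCG00580 had 9.43 FPKM against a listed 0, and ATCG01020 had a q of 0.0423 in the authors' deposited table. Poly(A) selection limits these organelle values, and the part of RNA quality in them was not tested.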
